A study of Mus musculus with 8 samples.

Results

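The genes described here are 35 genes of the cell cycle and of mitosis, followed in 2-cell mouse embryos fathered by 3 kinds of males. They were chosen by name for their roles, as cyclins, cyclin-dependent kinases, licensing factors, spindle checkpoint genes and mitotic kinases. Earlier results of these data were known when the choice was made. All 35 had a probeset naming 1 gene alone, out of 14995 such genes on the array, and all 35 lay above the filter on low values that kept 11444 genes for testing. In every group the mothers were C57BL/6 females given 5 IU of eCG and of hCG before mating, and the oviducts were flushed for embryos at 46 to 48 hours past hCG. About 26 embryos were pooled on average before RNA was extracted, amplified and hybridised to an Affymetrix array. The fathers were males carrying a KDM1A transgene (KDM1A TG, 3 arrays), their littermates without the transgene (nonTG, 2 arrays), or C57BL/6 males (3 arrays). KDM1A is a demethylase of histone H3, and the series asks whether disturbed histone methylation in sperm reaches the offspring. Groups are named here by the father. The embryos' own genotype, the promoter driving the transgene and the meaning of the 3 in the sample titles TG3 and nonTG3 were not given in the sources used here. Nothing in the labels ties the pools of a group to separate males or matings, so each p-value measures the spread between pools only, and that spread may be technical.

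Passage through the cell cycle is driven by cyclin-dependent kinases, whose activity rises and falls with the cyclins bound to them. D-type cyclins with Cdk4 or Cdk6 act in G1, cyclin E with Cdk2 at entry into DNA replication, and cyclins A and B with Cdk1 at entry into mitosis, where the spindle checkpoint holds back separation of the chromosomes until each one is attached. The egg stores mRNA for many of these genes, and the first divisions of the mouse embryo use both that store and the transcripts made once the embryonic genome is switched on during the 2-cell stage, a stage with a long G2 phase. In many mitotic genes of mouse and human the promoter holds a pair of short elements close to the transcription start, the cell cycle genes homology region (CHR) and the CCAAT box, while E2F sites are typical of genes of replication.

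The promoters of 4 of the 30 members acting from the G1/S boundary to mitosis are shown with that of Cdk4, to make their short elements visible. Any link between these elements and the measured values was not tested. The windows hold 300 bases, 250 before and 50 after the transcription start, from RefSeq on build GRCm38.p6, each written 5′ to 3′ on the strand of its gene. Capitals mark every match to the CHR (TTTGAA or TTCGAA), the CCAAT box (CCAAT) and E2F sites (TTTCCCGC, TTTCGCGC, TTTGCCGC or TTTGGCGC), on either strand, so that TTCAAA and ATTGG are the same elements read from the other side. In these windows no match of one element overlapped a match of another.
Cdk1, chr10:69352863-69353162, minus strand: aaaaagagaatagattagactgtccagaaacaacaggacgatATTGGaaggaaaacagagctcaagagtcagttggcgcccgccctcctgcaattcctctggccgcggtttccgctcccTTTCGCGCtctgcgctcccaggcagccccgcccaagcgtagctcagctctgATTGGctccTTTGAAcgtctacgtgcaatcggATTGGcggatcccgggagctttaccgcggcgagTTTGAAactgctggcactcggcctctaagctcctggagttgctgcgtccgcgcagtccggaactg
Cdc20, chr4:118437294-118437593, minus strand: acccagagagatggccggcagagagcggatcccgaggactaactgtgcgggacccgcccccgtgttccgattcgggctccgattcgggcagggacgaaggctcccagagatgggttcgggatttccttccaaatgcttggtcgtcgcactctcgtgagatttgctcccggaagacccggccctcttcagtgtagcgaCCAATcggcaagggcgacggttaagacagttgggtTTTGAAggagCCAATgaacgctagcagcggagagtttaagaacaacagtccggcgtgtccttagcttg
Kif11, chr19:37376132-37376431, plus strand: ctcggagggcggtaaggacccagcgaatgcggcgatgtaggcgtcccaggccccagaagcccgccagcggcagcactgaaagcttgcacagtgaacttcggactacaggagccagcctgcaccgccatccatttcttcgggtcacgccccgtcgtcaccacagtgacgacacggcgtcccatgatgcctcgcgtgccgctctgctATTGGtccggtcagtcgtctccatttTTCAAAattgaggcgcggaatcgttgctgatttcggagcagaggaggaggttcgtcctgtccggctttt
Cdt1, chr8:122567765-122568064, plus strand: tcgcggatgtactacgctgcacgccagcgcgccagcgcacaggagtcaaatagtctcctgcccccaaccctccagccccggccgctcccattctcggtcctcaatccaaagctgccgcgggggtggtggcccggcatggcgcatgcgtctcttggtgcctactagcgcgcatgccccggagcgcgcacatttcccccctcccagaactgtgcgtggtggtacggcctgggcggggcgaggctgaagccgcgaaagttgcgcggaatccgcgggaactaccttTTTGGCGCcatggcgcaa
Cdk4, chr10:127063285-127063584, plus strand: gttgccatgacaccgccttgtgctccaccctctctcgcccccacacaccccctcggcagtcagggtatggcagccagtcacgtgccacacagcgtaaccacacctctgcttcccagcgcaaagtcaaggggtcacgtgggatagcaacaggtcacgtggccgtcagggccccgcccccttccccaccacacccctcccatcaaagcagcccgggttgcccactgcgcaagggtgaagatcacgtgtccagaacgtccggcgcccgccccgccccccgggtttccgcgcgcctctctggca
Cdk1, the mitotic kinase, held all 3 kinds of element. Cdc20, an activator of the anaphase-promoting complex, and Kif11, a spindle motor, each held a CHR and a CCAAT box. Cdt1, a loader of the replicative helicase, held an E2F site alone, and Cdk4, the partner of D-type cyclins, held none of them.

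RefSeq windows were matched for 27 of the 35 members. Ccna2, Cdc25c, Kif20a, Incenp, Ccnd1, Gmnn, Ccnd2 and Aurkb had no entry. A CHR was found in 15 of the 27 genes (55.6%), against 21.7% of all 27025 genes with a window, and a CCAAT box in 19 (70.4%, against 41.1%). Both elements stood in the same gene for 14 of 27 (51.9%, against 8.61%), and an E2F site was found in 4 (14.8%, against 2.60%). The 5 checkpoint and anaphase genes (Bub1, Bub1b, Bub3, Cdc20 and Espl1) each held both a CHR and a CCAAT box. None of the 3 G1 genes with a window held a CHR, but 3 genes are too few for a contrast. The replication gene Cdc45 held a CHR and a CCAAT box and no E2F site, unlike Cdt1. A match describes letters in this window, and a gene without one was not searched elsewhere.

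The deposited log2 values had medians of 2.73 to 2.86 per array, and the number of arrays limits the precision of every value below. KDM1A TG replicates 1 and 3 had the widest values, with interquartile ranges of 2.38 and 2.60, against 1.87 to 2.09 in the other arrays. Over all 11444 genes the median log2 change stood at 0.18 (KDM1A TG against C57BL/6), 0.04 (nonTG against C57BL/6) and 0.16 (KDM1A TG against nonTG), so medians of gene groups are set beside it. Kdm1a was not analysed here, and the labels were therefore not checked against it. The tissue label was checked against its markers. Maternal oocyte genes such as Dppa3, a guard of maternal DNA methylation, had log2 values of 8.93, 10.01 and 8.87 in KDM1A TG arrays, 7.83 and 9.10 in nonTG arrays, and 9.67, 8.86 and 10.18 in C57BL/6 arrays. The 2-cell gene Obox6 lay between 5.09 and 6.76 in the 8 arrays. Oviduct genes were measured in the same pools, with Dynlrb2, a dynein light chain of ciliated cells, between 9.12 and 10.36. Dppa3, Obox6 and Dynlrb2 were each the brightest tested gene of their list by mean. The dimmest tested were Oas1d, Tdpoz4 and Wnt7a, with means of 2.48, 2.64 and 2.57. Of 16 2-cell genes listed, 15 had a probeset of their own and 11 lay above the filter. In pooled embryos, fewer cells of one kind and less RNA per cell cannot be told apart.

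Between replicates of one group the members varied more than the median gene. Their median SD within a group was 0.36 in KDM1A TG, 0.46 in nonTG and 0.43 in C57BL/6, against 0.32, 0.29 and 0.33 for all genes tested. The order of the arrays was shared among the members acting from G1/S to mitosis. KDM1A TG replicate 2 was the highest of its group for 23 of these 30 genes, against 29.2% of all genes. NonTG replicate 2 was above nonTG replicate 1 for 26 of them, against 48.0% of all genes. C57BL/6 replicate 2 was the lowest of its group for 26, against 33.3% of all genes. The 5 G1 genes (Ccnd1, Ccnd2, Ccnd3, Cdk4 and Cdk6) did not share this order. KDM1A TG replicate 2 was the lowest of its group for all 5, against 49.0% of all genes. C57BL/6 replicate 1 was the lowest for 4, against 31.3% of all genes. These counts are a description, since genes of one array are not independent.

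**Figure D1:**
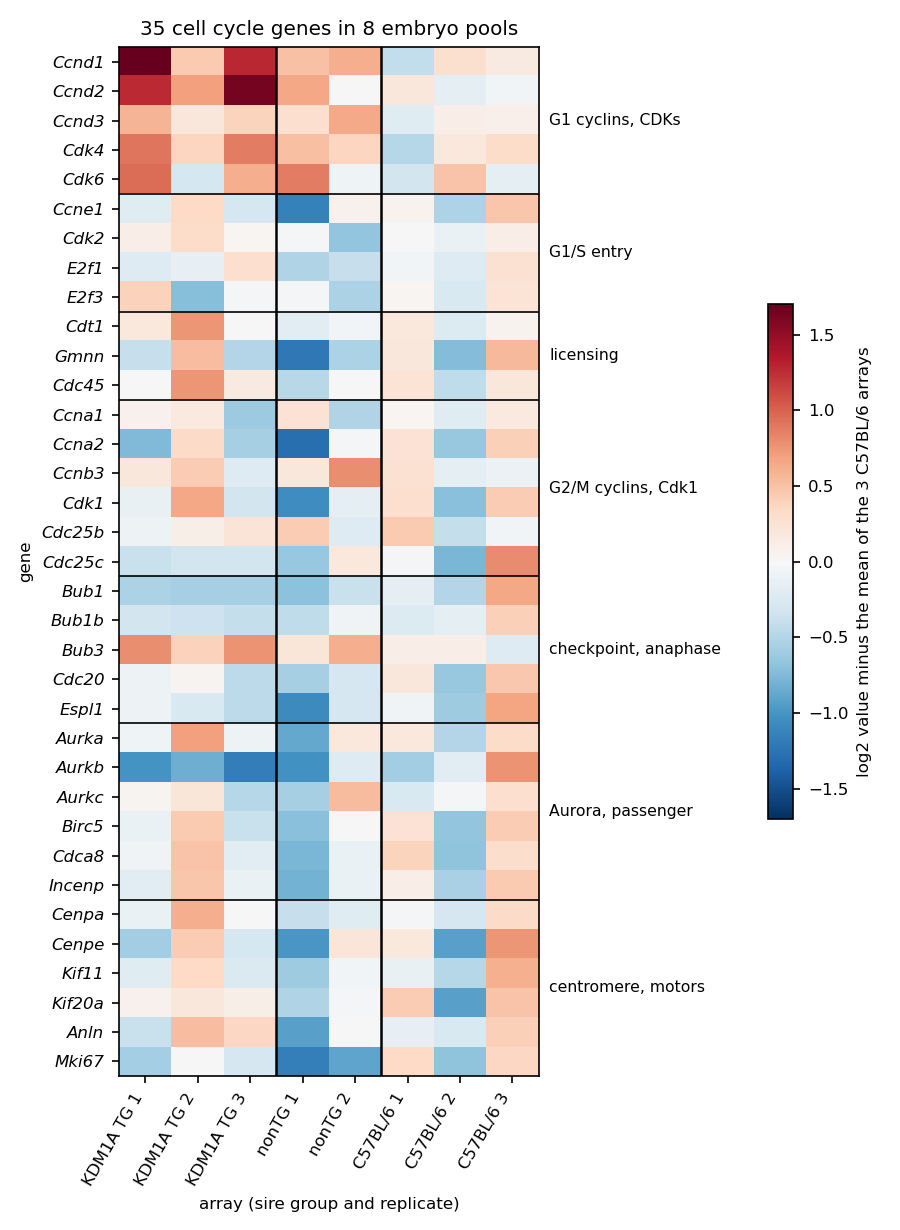
Heat map of the 35 genes in the 8 arrays, as the deposited log2 value minus the gene's mean over the C57BL/6 arrays, with genes grouped by the phase in which they act. Below the 5 G1 genes, KDM1A TG replicate 2 is the highest of its group for 23 of 30 genes and C57BL/6 replicate 2 the lowest of its group for 26 of 30.

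The mean level of the 30 genes from G1/S to mitosis shows the shared order array by array. It was 4.19, 4.54 and 4.14 in KDM1A TG replicates 1 to 3, 3.75 and 4.23 in nonTG replicates 1 and 2, and 4.42, 3.89 and 4.70 in C57BL/6 replicates 1 to 3. The 3 groups overlapped, and the range within C57BL/6 was wider than any distance between group means. The mean of 14 maternal oocyte genes was 4.79, 5.45 and 4.84 in KDM1A TG arrays, 4.12 and 4.77 in nonTG arrays, and 5.49, 4.58 and 5.38 in C57BL/6 arrays. It too was highest in KDM1A TG replicate 2 and nonTG replicate 2 and lowest in C57BL/6 replicate 2 of their groups. The mean of 19 oviduct epithelium markers was 6.18, 5.43 and 6.29 in KDM1A TG arrays, 5.90 and 5.75 in nonTG arrays, and 5.32, 5.82 and 5.25 in C57BL/6 arrays, so that in each group the array lowest in oviduct markers was the highest in the 30 cell cycle genes. The mean of the 5 G1 genes was 5.40, 4.59 and 5.27 in KDM1A TG arrays, 4.88 and 4.62 in nonTG arrays, and 4.07, 4.49 and 4.38 in C57BL/6 arrays. Its lowest KDM1A TG array was the one lowest in oviduct markers. The part of oviduct or maternal RNA in these levels was not tested.

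**Figure D2:**
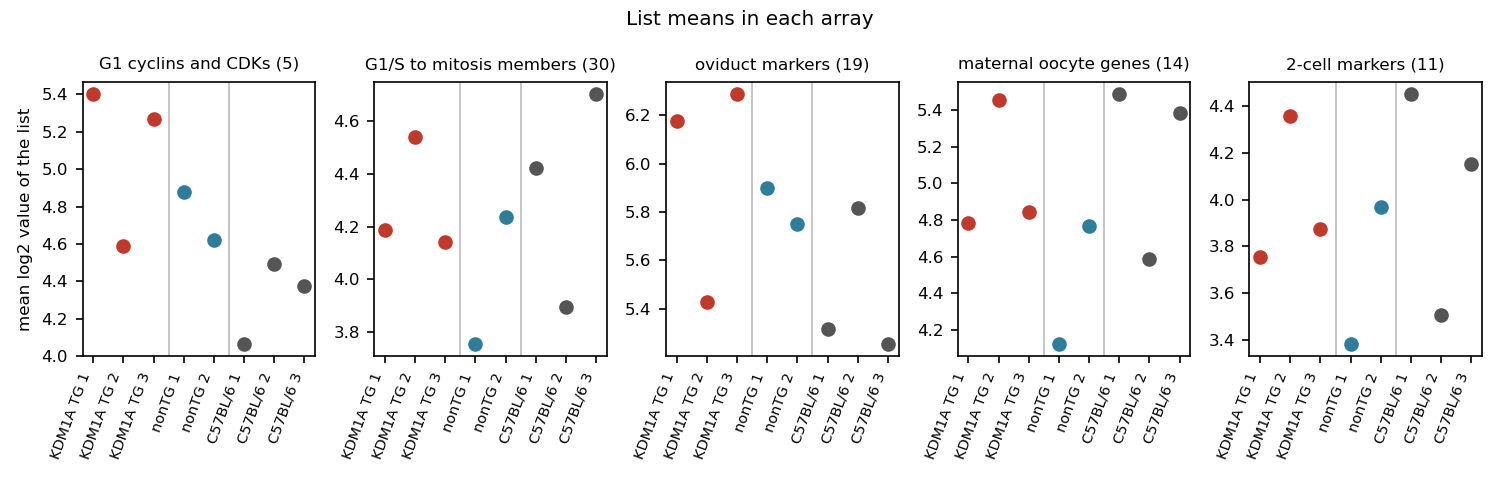
Mean log2 value of 5 gene lists in each of the 8 arrays, with KDM1A TG at the left, nonTG in the middle and C57BL/6 at the right. KDM1A TG replicate 2 is lowest of its group in oviduct markers (5.43) and in G1 genes (4.59) and highest in the genes from G1/S to mitosis (4.54) and in maternal oocyte genes (5.45).

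Embryos of KDM1A TG fathers were first compared with embryos of C57BL/6 fathers, which asks in what way having a transgenic father sets embryos apart from the control strain (n = 3 and 3). No member passed limma's test after adjustment over all 11444 genes. The nearest were Ccnd2 and Ccnd1, the genes of cyclins D2 and D1, each a little over 2-fold higher in KDM1A TG. At an unadjusted p of 0.05, 4 members were higher and 1 lower, against 12.1% and 2.1% of all genes, and 83 genes (0.725%) passed the adjusted threshold, 75 of them higher. The 2 groups had no overlap between their arrays for 5 members on the higher side (Ccnd1, Ccnd2, Ccnd3, Cdk4 and Bub3, against 14.5% of all genes) and 3 on the lower side (Aurkb, Bub1 and Bub1b, against 5.34%).

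Cyclin D2, which with cyclins D1 and D3 activates Cdk4 and Cdk6 in G1, gave the smallest p of the 35. Ccnd2 had log2 values of 5.36, 4.78 and 5.71 in KDM1A TG arrays and 4.28, 3.93 and 4.04 in C57BL/6 arrays. Every KDM1A TG array lay above every C57BL/6 array. The log2 change was 1.20 (SE 0.33), a 2.30-fold difference with a 95% interval of 1.46 to 3.61 (limma, adjusted p = 0.0536). Ccnd1 had values of 6.55, 5.26 and 6.10 in KDM1A TG arrays and 4.40, 5.08 and 4.96 in C57BL/6 arrays. Here too the groups did not overlap, though KDM1A TG replicate 2 was only just above the highest C57BL/6 array. Its change was 1.16 (SE 0.33), 2.23-fold with an interval of 1.41 to 3.54 (limma, adjusted p = 0.0719). Both calls depended on the setting. Ccnd1 and Ccnd2 passed after median centring (adjusted p = 0.0398 and 0.0294) and without KDM1A TG replicate 2 (changes of 1.51 and 1.45, adjusted p = 0.0223 and 0.0254). With quantile normalization their changes were 0.89 and 0.95 (adjusted p = 0.459 and 0.369). With a covariate for the mean of the oviduct markers they were 0.64 and 0.89 (adjusted p = 0.75 for both), and without KDM1A TG replicates 1 and 3 they were 0.45 and 0.70.

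Cdk4, the kinase that D-type cyclins activate, had log2 values of 5.89, 5.34 and 5.84 in KDM1A TG arrays and 4.48, 5.16 and 5.28 in C57BL/6 arrays. The lowest KDM1A TG array was just above the highest C57BL/6 array, and the change was 0.72 (SE 0.33, limma adjusted p = 0.31). Ccnd3, of the third D-type cyclin, stood at 5.21, 4.82 and 5.02 in KDM1A TG arrays and 4.43, 4.75 and 4.72 in C57BL/6 arrays, a change of 0.38 (95% interval -0.26 to 1.02). Cdk6, the close relative of Cdk4, overlapped between the groups, with a change of 0.42 (interval -0.26 to 1.10). The 5 G1 genes thus all had changes above 0, with a median of 0.72 against 0.18 for all genes, of which 64.9% lay above 0. In the same arrays 18 of 19 oviduct markers had changes above 0, with a median of 0.53 and group means of 5.96 ± 0.47 in KDM1A TG and 5.46 ± 0.31 in C57BL/6 (SD, n = 3 each). All 18 stroma and muscle markers did so too, with a median of 0.99. Their list means were 4.58, 4.30 and 5.90 in KDM1A TG arrays and 4.23, 4.31 and 3.52 in C57BL/6 arrays. Changes lay above 0 for 4 of 9 cumulus and granulosa markers (median -0.13) and 5 of 8 blood and immune markers (median 0.17). With the oviduct covariate the G1 median was 0.43 (0.10 for all genes). Without KDM1A TG replicates 1 and 3 it was 0.37 (0.07 for all genes), with 4 of the 5 genes above 0 in both fits. Cdk6 was the one below (-0.27 and -0.30). The part of stromal cells was not tested.

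**Figure D3:**
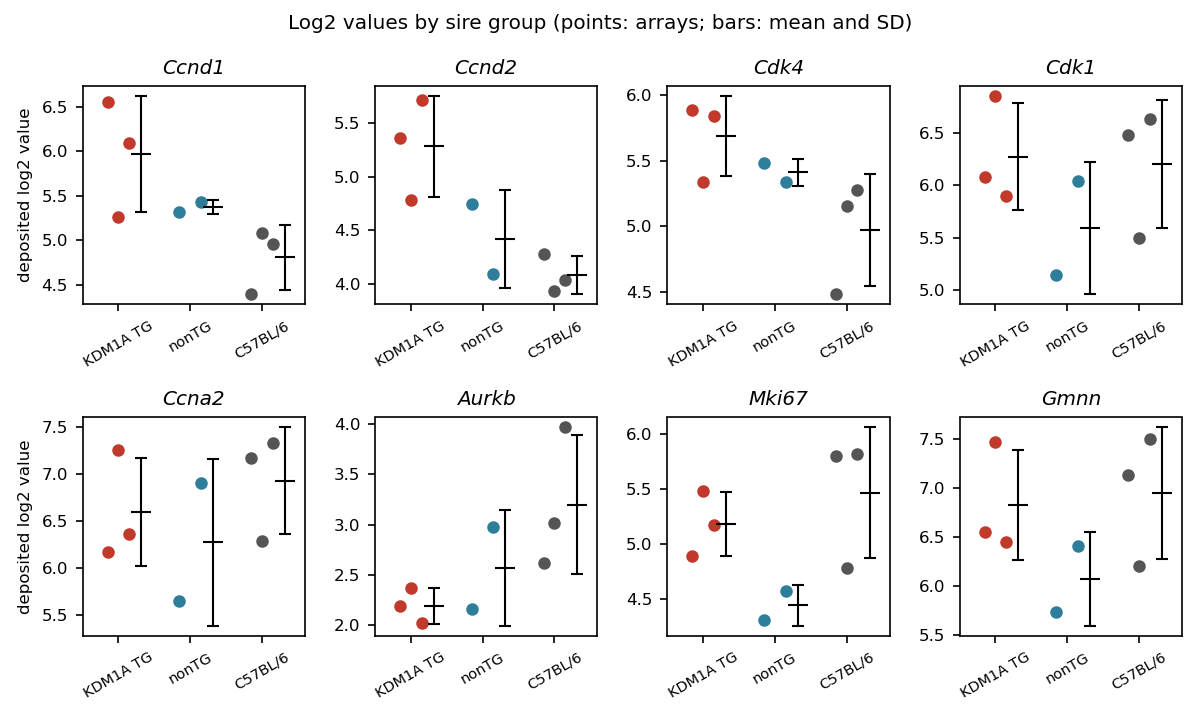
Log2 values of Ccnd1, Ccnd2, Cdk4, Cdk1, Ccna2, Aurkb, Mki67 and Gmnn in each array, with KDM1A TG, nonTG and C57BL/6 from left to right; points are arrays and bars give the mean and SD of a group. The 3 KDM1A TG points of Ccnd2 (4.78 to 5.71) lie above the 3 C57BL/6 points (3.93 to 4.28), while those of Cdk1 overlap.

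The 6 groups of genes acting later in the cycle had median changes between -0.26 and 0.31 in KDM1A TG against C57BL/6. The 4 genes of S phase entry lay between -0.12 and 0.15. Ccne1, of cyclin E1, had log2 values of 5.97, 6.52 and 5.90 in KDM1A TG arrays and 6.24, 5.65 and 6.65 in C57BL/6 arrays, which overlapped throughout (change -0.05, 95% interval -0.72 to 0.62). Its partner Cdk2 had a change of 0.15, and the transcription factors E2f1 and E2f3 had changes of -0.03 and -0.12. Among the genes of origin licensing and firing, Cdt1 had values of 4.71, 5.28 and 4.53 in KDM1A TG arrays and 4.70, 4.29 and 4.59 in C57BL/6 arrays, a change of 0.31 (interval -0.33 to 0.96). KDM1A TG replicate 2 was the highest of the 6 arrays. Gmnn, of the Cdt1 inhibitor geminin, had values of 6.56, 7.47 and 6.46 in KDM1A TG arrays and 7.14, 6.21 and 7.50 in C57BL/6 arrays, a change of -0.12 (interval -0.80 to 0.56). Cdc45, a part of the active helicase, had a change of 0.31.

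Cdk1, the kinase that drives entry into mitosis, had log2 values of 6.08, 6.86 and 5.90 in KDM1A TG arrays and 6.48, 5.50 and 6.63 in C57BL/6 arrays. The groups overlapped, with a change of 0.07 and an interval of -0.61 to 0.75, which leaves room for differences of up to 0.75 in size. Its cyclin partner gene Ccna2 had values of 6.17, 7.25 and 6.37 in KDM1A TG arrays and 7.17, 6.28 and 7.33 in C57BL/6 arrays, a change of -0.33 (interval -1.02 to 0.36). Ccnb3, a B-type cyclin of the germ line, was near the filter level of 2.07, with values of 2.17, 2.41 and 1.76 in KDM1A TG arrays and 2.24, 1.82 and 1.87 in C57BL/6 arrays. Its C57BL/6 mean of 1.98 lay under that level, and its change was 0.14. Ccna1, of the cyclin A form typical of the germ line, and the phosphatase genes Cdc25b and Cdc25c, whose products activate Cdk1, had changes of -0.13, 0.08 and -0.34.

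Of the spindle checkpoint genes, 3 had arrays that did not overlap, in both directions. Bub1, a checkpoint kinase, had log2 values of 3.15, 3.12 and 3.12 in KDM1A TG arrays and 3.54, 3.19 and 4.34 in C57BL/6 arrays (change -0.55, SE 0.33, limma adjusted p = 0.428). Its KDM1A TG arrays were nearly alike, and C57BL/6 replicate 3 was far above the rest. Bub1b, of the checkpoint protein BubR1, had values of 2.52, 2.47 and 2.43 in KDM1A TG arrays and 2.60, 2.66 and 3.23 in C57BL/6 arrays (change -0.36, limma adjusted p = 0.588). Without C57BL/6 replicate 3 the changes were -0.23 for Bub1 and -0.16 for Bub1b. Bub3, whose product carries both to the kinetochore, had values of 5.51, 5.12 and 5.49 in KDM1A TG arrays and 4.83, 4.83 and 4.51 in C57BL/6 arrays (change 0.65, SE 0.32, limma adjusted p = 0.344). It stood on the other side from its partners. Cdc20 had values of 5.47, 5.61 and 5.12 in KDM1A TG arrays and 5.74, 4.92 and 6.01 in C57BL/6 arrays, a change of -0.16, and Espl1, of the protease separase, had a change of -0.26.

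The chromosomal passenger complex corrects faulty attachment of chromosomes to the spindle, with the kinase Aurkb at its centre. Aurkb had log2 values of 2.19, 2.37 and 2.02 in KDM1A TG arrays and 2.61, 3.02 and 3.96 in C57BL/6 arrays. All KDM1A TG arrays lay below all C57BL/6 arrays, with KDM1A TG replicate 3 under the filter level and C57BL/6 replicate 3 well above the other 2 of its group. The change was -1.01 (SE 0.34, 95% interval -1.67 to -0.34, limma adjusted p = 0.147). Without C57BL/6 replicate 3 it was -0.62 (adjusted p = 0.504), and with array weights it was -0.82 and passed (adjusted p = 0.0419). With array weights 1694 of all 11444 genes passed. Aurka, of the related kinase of the spindle poles, had values of 4.77, 5.54 and 4.77 in KDM1A TG arrays and 5.03, 4.36 and 5.16 in C57BL/6 arrays, a change of 0.18 (interval -0.49 to 0.85). Aurkc, the member of the family typical of germ cells, had values of 4.16, 4.32 and 3.63 in KDM1A TG arrays and 3.86, 4.10 and 4.41 in C57BL/6 arrays, a change of -0.08. A second Aurkc probeset gave 0.07, and the other 34 members had 1 probeset each. The other subunits of the complex, Birc5, Cdca8 and Incenp, had changes of -0.02, 0.08 and 0.06, each nearer 0 than that of Aurkb.

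Genes of the centromere, the spindle motors and cytokinesis had changes between -0.29 and 0.17. They were 0.17 for Cenpa, the histone of the centromere, and -0.15 for the kinetochore motor gene Cenpe. The motor genes Kif11 and Kif20a had changes of -0.04 and 0.12, and Anln, of the ring protein anillin, had a change of 0.17. Mki67, the proliferation marker, had a change of -0.29 (95% interval -0.94 to 0.37). Taking the 30 genes from G1/S to mitosis as one, 13 had changes above 0, their median was -0.03 against 0.18 for all genes, and the sign of that median turned with the setting. It was -0.20 after quantile normalization (0.09 for all genes), -0.24 after cyclic loess (0.07) and 0.04 after median centring (0.25). It was 0.44 with the oviduct covariate (0.10) and 0.33 without KDM1A TG replicates 1 and 3 (0.07). Median centring left its distance from the median of all genes unchanged at -0.22. Among these settings it lay above the median of all genes only with the oviduct covariate and without KDM1A TG replicates 1 and 3.

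**Figure D4:**
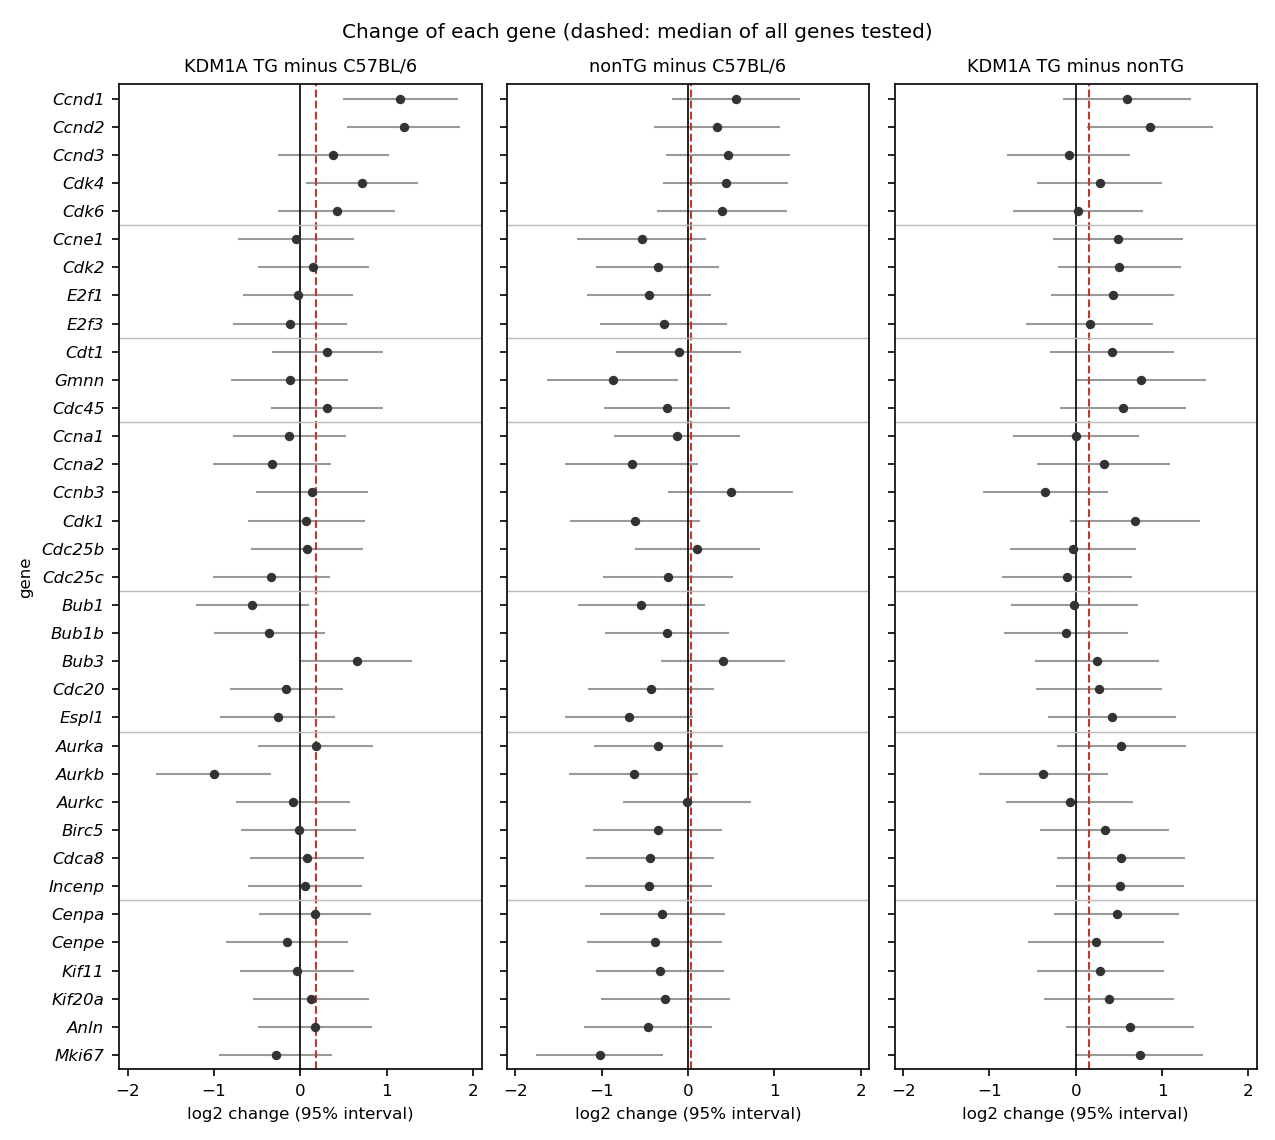
Log2 change of each of the 35 genes with its 95% interval, in 3 panels that set KDM1A TG against C57BL/6, nonTG against C57BL/6 and KDM1A TG against nonTG; the dashed line marks the median of all genes (0.18, 0.04 and 0.16). The intervals of Ccnd1, Ccnd2, Cdk4 and Bub3 lie above 0 and that of Aurkb below 0 in the first panel, and in the second the genes from G1/S to mitosis lie mostly left of the line.

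Embryos of nonTG fathers, from the same litters as the transgenic males, were compared with the same C57BL/6 arrays (n = 2 and 3), so this comparison shares its controls with the one above. Again no member passed limma's test over all genes. At an unadjusted p of 0.05 no member was higher and 2 were lower (Mki67 and Gmnn), against 4.61% and 3.62% of all genes, and 15 genes (0.131%) passed the adjusted threshold. The median change of the 35 was -0.32, with 27 below 0, against 0.04 for all genes, of which 46.8% lay below 0. The arrays did not overlap for 4 members on the higher side (Ccnd1, Ccnd3, Cdk4 and Bub3, against 15.4% of all genes) and 2 on the lower side (Mki67 and E2f1, against 9.41%).

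Mki67 had log2 values of 4.31 and 4.57 in nonTG arrays and 5.81, 4.78 and 5.82 in C57BL/6 arrays. Both nonTG arrays lay below every C57BL/6 array; C57BL/6 replicate 2 was the nearest to them. The change was -1.03 (SE 0.37, 95% interval -1.76 to -0.29, limma adjusted p = 0.355). Gmnn had values of 5.74 and 6.41 in nonTG arrays and 7.14, 6.21 and 7.50 in C57BL/6 arrays, with one array overlapping (change -0.87, SE 0.38, limma adjusted p = 0.506). E2f1, which switches on genes of replication, had values of 3.40 and 3.52 in nonTG arrays and 3.88, 3.70 and 4.18 in C57BL/6 arrays, a change of -0.45 (interval -1.17 to 0.26). Its distance between the groups was smaller than the range within C57BL/6.

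The other genes of S phase and mitosis lay on the same side without passing. Ccne1 had log2 values of 5.03 and 6.26 in nonTG arrays, around and below the C57BL/6 values given above (change -0.54). Cdt1 had 4.36 and 4.49 (change -0.11), Cdk1 had 5.14 and 6.04 (change -0.61) and Ccna2 had 5.65 and 6.90 (change -0.65). For each of these genes nonTG replicate 1 was the lower array of its pair, and all overlapped with C57BL/6. Cdc20 had 4.99 and 5.27 in nonTG arrays (change -0.43), Bub1 had 2.99 and 3.30 (change -0.54) and Bub1b had 2.40 and 2.77 (change -0.25). All 6 aurora and passenger genes had changes below 0, with a median of -0.40. In nonTG arrays Aurka stood at 3.97 and 5.03, Aurkb at 2.16 and 2.98 and Aurkc at 3.56 and 4.66, with changes of -0.35, -0.63 and -0.01. A second Aurkc probeset gave 0.31. The 6 genes of centromere, motors and cytokinesis also had changes below 0, with a median of -0.36. The 3 exceptions among the 30 were Ccnb3 (2.17 and 2.77 in nonTG arrays, change 0.49), Cdc25b (change 0.11) and Bub3 (4.92 and 5.34 in nonTG arrays, change 0.41).

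The G1 genes stood on the higher side in nonTG as well. Ccnd1 had log2 values of 5.32 and 5.43 in nonTG arrays, above all 3 C57BL/6 arrays (4.40, 5.08 and 4.96), a change of 0.56 (95% interval -0.18 to 1.30). Ccnd3 had 4.92 and 5.28 in nonTG arrays against 4.43, 4.75 and 4.72 in C57BL/6 arrays, and Cdk4 had 5.48 and 5.34 against 4.48, 5.16 and 5.28, with changes of 0.46 and 0.44. Ccnd2 had 4.75 and 4.10 in nonTG arrays against 4.28, 3.93 and 4.04 in C57BL/6 arrays and overlapped (change 0.34), as did Cdk6 (change 0.40). The median of the 5 was 0.44 against 0.04 for all genes.

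Other gene lists in the same pools also differed between nonTG and C57BL/6. Of 14 maternal oocyte genes, 13 had changes below 0, with a median of -0.72 and mean levels of 4.45 ± 0.45 in nonTG (SD, n = 2) and 5.15 ± 0.49 in C57BL/6 (SD, n = 3). Of 11 2-cell genes, 10 had changes below 0, with a median of -0.36, and 16 of 19 oviduct markers had changes above 0, with a median of 0.45. Of 18 stroma and muscle markers, 15 had changes above 0 (median 0.62). Changes lay below 0 for 7 of 9 cumulus and granulosa markers (median -0.30) and 5 of 8 blood and immune markers (median -0.37). With the mean of the oviduct markers as covariate the median of the 30 genes was -0.04, against -0.35 without it. The G1 median was then 0.19 and that of all genes -0.02. That mean was itself 5.83 in nonTG and 5.46 in C57BL/6, so the fit cannot tell father and oviduct RNA apart. Single arrays weighed on this comparison. Without C57BL/6 replicate 2, 8 members were lower at an unadjusted p of 0.05, a count with no share of all genes beside it. The median of the 30 genes in that fit was -0.61, against 0.05 for all genes. Without nonTG replicate 2 these medians were -0.62 and 0.06, and without nonTG replicate 1 they were -0.09 and 0.03. No member passed the adjusted threshold in any of these fits. The part of maternal, oviduct or stromal RNA was not tested.

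Embryos of KDM1A TG fathers were compared directly with those of nonTG fathers, which sets fathers with the transgene against littermates without it (n = 3 and 2). No member passed limma's test over all genes, and 2 were higher at an unadjusted p of 0.05 (Ccnd2 and Mki67, against 4.97% of all genes) and none lower (against 1.43%). In this comparison 5 genes (0.0437%) passed. The arrays did not overlap for 9 members, all on the higher side (Ccnd2, Cdk2, E2f1, Cdt1, Gmnn, Cdc45, Cenpa, Kif20a and Mki67, against 16% of all genes), and for none on the lower side (against 6.38%). Of the 35 members 27 had changes above 0, with a median of 0.33, against 65.4% of all genes and a median of 0.16.

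Ccnd2 stood at 5.36, 4.78 and 5.71 in KDM1A TG arrays and at 4.75 and 4.10 in nonTG arrays, a change of 0.86 (SE 0.37, limma adjusted p = 0.77). The lowest KDM1A TG array was only just above nonTG replicate 1, and without KDM1A TG replicates 1 and 3 the change was 0.36. Mki67 stood at 4.89, 5.48 and 5.18 in KDM1A TG arrays and at 4.31 and 4.57 in nonTG arrays, a change of 0.74 (SE 0.37, limma adjusted p = 0.775). Gmnn stood at 6.56, 7.47 and 6.46 in KDM1A TG arrays and at 5.74 and 6.41 in nonTG arrays, a change of 0.75 (SE 0.38, limma adjusted p = 0.775). For both genes the groups were apart, for Gmnn only just. The 3 licensing and origin genes and the 6 genes of centromere, motors and cytokinesis all had changes above 0, with medians of 0.55 and 0.43. Ccnd1 (change 0.60), Cdk4 (0.28), Cdk6 (0.03) and Ccnd3 (-0.08) overlapped between the groups. Without KDM1A TG replicates 1 and 3 the G1 median was -0.11 (0.003 for all genes), against 0.28 with them (0.16 for all genes). Of the 14 maternal oocyte genes, 13 had changes above 0 with a median of 0.67. So did 9 of 11 2-cell genes (median 0.32), 15 of 18 stroma and muscle markers (0.40) and 11 of 19 oviduct markers (0.12). Changes lay above 0 for 7 of 8 blood and immune markers (median 0.38) and 4 of 9 cumulus and granulosa markers (-0.03). The part of these lists was not tested here either. The smallest differences were those of Ccna1 (0.01, 95% interval -0.72 to 0.74), Bub1 (-0.01, interval -0.75 to 0.72) and Cdk6 (interval -0.73 to 0.78).

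The 5 arrays of both kinds of fathers were set together against the 3 C57BL/6 arrays, which asks whether the mean of this line differs from C57BL/6. A low p here does not require both groups to differ. Ccnd2 had changes of 1.20 in KDM1A TG and 0.34 in nonTG, and Aurkb of -1.01 and -0.63. For both genes the nonTG arrays overlapped those of C57BL/6. No member passed limma's test. At an unadjusted p of 0.05, 3 members were higher (Ccnd1, Ccnd2 and Cdk4, against 10.1% of all genes) and 1 lower (Aurkb, against 2.63%), and 151 genes (1.32%) passed the adjusted threshold. Ccnd1 had the smallest p, with a change of 0.92 (SE 0.30, limma adjusted p = 0.114). Aurkb had a change of -0.85 (SE 0.30, adjusted p = 0.159), Ccnd2 of 0.85 (SE 0.30, adjusted p = 0.161) and Cdk4 of 0.61 (SE 0.30, adjusted p = 0.377). All 5 arrays of the line lay above all 3 C57BL/6 arrays for Ccnd1, Ccnd3, Cdk4 and Bub3 (change 0.55), against 6.15% of all genes, and no member lay wholly below them, against 2.02%. Without KDM1A TG replicate 2 Ccnd1 passed (change 1.04, adjusted p = 0.0437). Of the 30 genes from G1/S to mitosis 25 had changes below 0, with a median of -0.15, against 39.4% of all genes and a median of 0.12. Without C57BL/6 replicate 3, 12 of the 30 were below 0 and their median was 0.04 (0.13 for all genes). Without nonTG replicate 1, 17 were below 0 with a median of -0.03 (0.14 for all genes). With the oviduct covariate 8 were below 0, with a median of 0.18 (0.04 for all genes). In the same comparison all 14 maternal oocyte genes had changes below 0 (median -0.40), 17 of 19 oviduct markers had changes above 0 (median 0.37), and all 18 stroma and muscle markers did (median 0.75), 4 of them passing limma's test. Changes lay above 0 for 1 of 9 cumulus and granulosa markers (median -0.17). They did so for 3 of 8 blood and immune markers (median -0.10), of which 2 passed on the lower side. The part of these lists was not tested.

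Other genes of the cell cycle, 134 listed for their roles, gave 102 with a probeset of their own and 99 that were tested. None passed in any of the 4 comparisons. In KDM1A TG against C57BL/6 their median change was 0.04, against 0.18 for all genes, and 7 were higher and none lower at an unadjusted p of 0.05, against 12.1% and 2.1% of all genes. Those with the smallest p and arrays apart were Cdkn1c, an inhibitor of cyclin-dependent kinases (change 0.84), the cohesin gene Smc1a (0.80) and Ckap5, of a microtubule polymerase (0.77), with limma adjusted p between 0.231 and 0.264. In nonTG against C57BL/6 the median was -0.28, with 70 of 99 below 0, against 46.8% of all genes. At that p 12 were lower and 1 higher, against 3.62% and 4.61%. The kinetochore gene Dsn1 (-1.01), Foxm1, a transcription factor of mitotic genes (-1.01), and Cks2, of a small partner of Cdk1 (-0.97), stood lowest with arrays apart, and Rbl2, a relative of the retinoblastoma gene (1.004), and the cohesin genes Smc3 (0.62) and Stag2 (0.47) stood on the higher side.

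In KDM1A TG against nonTG the median of these genes was 0.33, with 85 of 99 above 0, against 65.4% of all genes. At an unadjusted p of 0.05, 8 were higher and none lower, against 4.97% and 1.43%. E2f4, of a repressing E2F factor, had a change of 1.16 (SE 0.37, limma adjusted p = 0.511), the kinetochore gene Ndc80 of 0.95 and the mitotic kinase gene Plk1 of 0.88, all with arrays apart, and the replication gene Gins1 was apart on the lower side (-0.35). With both kinds of fathers against C57BL/6, Rbl2 (0.80), Smc1a (0.65) and Cdkn1c (0.64) had the smallest p among genes with arrays apart (limma adjusted p = 0.192 to 0.348). In that comparison 4 of the 99 were higher and 1 lower at an unadjusted p of 0.05, against 10.1% and 2.63% of all genes.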

How the data were processed

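RNA of 8 pools of 2-cell embryos was read on 1 Affymetrix array each. Values were deposited by the authors on a log2 scale, 1 per probeset and array. Per the submitters' processing notes, R 3.1.0, oligo, RMA and limma were used, with no role or order given, and background correction, annotation and build were not given in the sources used here. Genes were named from GEO's platform table. Of 22961 probesets 15745 carried 1 symbol, and the brightest one stood for each of 14995 genes. Genes with a mean above the 30th percentile of probesets (log2 2.07) were tested, 11444 in all.

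Group means were fitted to all 8 arrays by limma 3.58.1 (lmFit, eBayes) under R 4.3.3. The first 3 comparisons were contrasts of the means of the 3 groups. The fourth came from a separate fit with the 5 arrays of both kinds of fathers as 1 group. Its spread therefore includes any difference between KDM1A TG and nonTG. All 4 were tested, two-sided, at an adjusted p of 0.05 (Benjamini-Hochberg over all genes). The script was tested on simulated data. Per-array values are printed for members that passed, for up to 3 per comparison and direction with the smallest p among those whose arrays did not overlap, and for 10 members fixed by role. Values were printed for further members where a result turned on them. The 20 alternatives covered the filter, the scaling, array weights and the variance model, the groups in the fit, a replicate block, the choice of probesets, an oviduct covariate and left-out arrays. Members, gene lists and tests were chosen with earlier results of these data known. Promoters were searched on both strands, and a gene with several windows counted once if any held the motif.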

Additional observations from a re-analysis of the deposited data

How the results depend on the processing

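The number of genes past the threshold was 83 (KDM1A TG against C57BL/6), 15 (nonTG against C57BL/6), 5 (KDM1A TG against nonTG) and 151 (both kinds of fathers against C57BL/6). In that order of comparisons it was 138, 44, 7 and 135 with no filter, 53, 9, 2 and 91 with the filter at the 50th percentile, and 57, 10, 3 and 95 with the mean of a gene's probesets. Quantile normalization gave 5 (4 higher), 1 (none higher), 2 (both higher) and 6 (5 higher), and cyclic loess 5 (4 higher), 1 (none higher), 2 (both higher) and 1 (none higher), against 75, 8, 4 and 124 higher as deposited. Median centring gave 151, 13, 5 and 167, trend and robust eBayes 128, 30, 9 and 132, and array weights 1694, 47, 3 and 735. Fits of only the groups compared gave 73, 6 and 5 in the first 3. The oviduct marker mean as a covariate gave 1, 3, 3 and 4, and leaving out KDM1A TG replicates 1 and 3 gave 1, 6, 3 and 3, with the lone KDM1A TG array assumed to vary like the other groups. Leaving out single arrays gave 9 to 254, 3 to 80, 2 to 17 and 18 to 279, the lowest without KDM1A TG replicate 3, nonTG replicate 2, KDM1A TG replicate 2 or 3, and KDM1A TG replicate 3, and the highest without C57BL/6 replicate 2 (the first 2 comparisons), nonTG replicate 1 and KDM1A TG replicate 2. The cause of these shifts was not tested.

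The labels do not say whether the replicate numbers pair the arrays. Deviations of same-numbered KDM1A TG and C57BL/6 arrays correlated at -0.07, -0.38 and -0.11. Those of nonTG and C57BL/6 correlated at 0.01 and -0.25, and those of KDM1A TG and nonTG at 0.11 and 0.18. Not every pair was above 0.1. Deviations within groups of 2 or 3 arrays depend on each other, so these values cannot decide whether arrays were paired. A replicate block gave 76, 23, 4 and 122 genes, and no member passed with it.

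Over the alternatives members passed 16 times, all against C57BL/6. For KDM1A TG these were, beyond the settings named with the genes above, Ccnd2 with no filter (adjusted p = 0.0418) and with trend and robust eBayes (0.042), Ccnd1 without C57BL/6 replicate 2 (0.0375), and Ccnd1, Ccnd2, Cdk4 and Cdk6 with array weights (adjusted p = 8.09e-05, 0.00205, 0.0101 and 0.042). Of these genes Cdk6 changed sign in other fits, given above. For both kinds of fathers they were Ccnd1, Ccnd2 and Cdk4 with array weights (0.00155, 0.0292 and 0.0401). Of the 99 other cell cycle genes 5 and 1 passed in these comparisons with array weights. That setting passed many genes of every kind, 1694 and 735 of all 11444. Its 5 and 3 of the 35 members are to be read beside those totals.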
